A study of Xenopus laevis with 11 samples.

Results

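The genes described here were those whose signal was highest in the anterior neural fold of Xenopus laevis embryos at stage 18. The anterior neural fold is the front rim of the neural plate, which gives rise to forebrain, eye and olfactory tissue and borders the cement gland, the mucus-secreting organ of the tadpole. A gene was included if its mean log2 intensity in the fold lay 1 or more (2-fold or more) above the mean of each of the 4 other groups of samples. Sine oculis homeobox genes and symbols beginning with rax, hesx, fezf, foxg, otx, pitx1, ag1, agr2, frzb, dkk, sfrp, tll1, gsc, shh, aldh1a, cyp26, krt, astl, fgf, slc, col, pcdh, efn or eph were left out, and 1 probe set was kept per symbol. The rule found 55 genes among 7531 symbols measured by a probe set with a single symbol. Since the genes were chosen by their fold array values, every difference between the fold and another group is given below as a description, with no test.

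RNA was measured on 11 Affymetrix Xenopus laevis arrays. The anterior neural fold at stage 18 was measured on 3 arrays (n = 3). The other groups were the neural border, with n = 2 at stage 18 and n = 3 at stage 14, the stage 12 neural plate with n = 2, and a stage 14 animal cap explant labelled as epidermis with n = 1. The labels give no strain, genotype, injection or added agent for any group. The labels call the arrays biological replicates without naming separate clutches or animals, so a p-value here covers the spread among these arrays alone, and that spread may be technical. Each dissected piece held many cells, and fewer cells of a type and less RNA per cell cannot be told apart.

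The front of the neural plate is known for homeodomain, forkhead and LIM transcription factors that set up the eye field, the telencephalon and the hypothalamus. Low Wnt signalling is needed there, and Frizzled proteins are the receptors that bind Wnt ligands. Notch signalling acts through Hes repressors, which hold neural cells in a progenitor state. These statements are background and were not measured here.

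The array medians ran from 4.94 to 5.04 log2, and arrays of a group correlated with each other at r = 0.983 to 0.993. The 95th percentile of the 17 tag control probe sets, which match no frog gene, was 3.72 log2, and a level below it was taken as not told apart from background. The labelled tissue was checked against markers. The forebrain markers include pax6.L and the cement gland markers include muc2l.L, both among the genes chosen for high fold signal. For these genes a high fold reading follows from the choice and is no check. All 7 measured anterior neural and forebrain markers were above background in the fold, where their mean level was 7.98 to 8.49 by array, against 4.82 to 5.03 in the border at stage 18. The same markers read 5.84 to 6.34 in the border at stage 14, where all 7 were also above background, and 5.19 to 6.18 in the plate. The dissected fold also held cement gland signal, with 4 of 4 markers above background and means of 8.40 to 8.99 against 5.82 to 5.93 in the border at stage 18. In each of the other groups 3 of the 4 were above background too, all but muc2l.L. The cap array, next highest for the cement gland markers, read 6.65. Hatching gland markers, 3 of 3 above background, read 8.13 to 9.12 in the fold and 9.22 to 9.61 in the border at stage 18. Axial and prechordal mesoderm markers, 4 of 5 above background in the fold and in the plate, read 5.71 to 5.95 in the fold. They read 5.18 to 5.32 in the plate and 3.90 to 4.10 in the border at stage 18. Neural crest markers read 3.68 to 4.81 in the fold against 8.06 to 8.21 in the border at stage 18. Epidermis markers, 6 of 7 above background, read 7.67 to 7.84 in the fold against 8.04 and 8.26 in the border at stage 18. For the same markers the cap read 8.82, the border at stage 14 6.84 to 7.32 and the plate 5.44 and 5.63. The part of these other tissues in the genes below was not tested.

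The 55 genes had a median fold-mean level of 7.08 log2, with a range of 4.25 to 9.32, and their median level in the other groups was 4.56 in the border at stage 18, 4.39 in the border at stage 14, 3.80 in the plate and 3.75 in the animal cap. The gap, defined as the fold mean minus the highest of the 4 other group means, had a median of 1.45 log2 (2.74-fold). It was 2 or more for 13 genes and 3 or more for 5. With readings below background set to the background level, the median gap was 1.44, the counts were again 13 and 5, and 52 of the 55 kept a gap of 1 or more, nkx2-4.L, nr2e1.S and cpn1.S falling short of it. In 54 of the 55 every fold array lay above every other array, as it did for 4.34% of all 15491 probe sets. That share follows from the choice of genes and is not a result. The exception was cfb.L, complement factor B, with fold arrays at 7.86, 8.25 and 8.59 and a border array at stage 18 at 8.12. The next highest group was the border at stage 18 for 23 genes, the border at stage 14 for 17, the animal cap for 10 and the plate for 5. At background in all 4 other groups were 11 genes, while 25 were above background in every one of them.

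**Figure D1:**
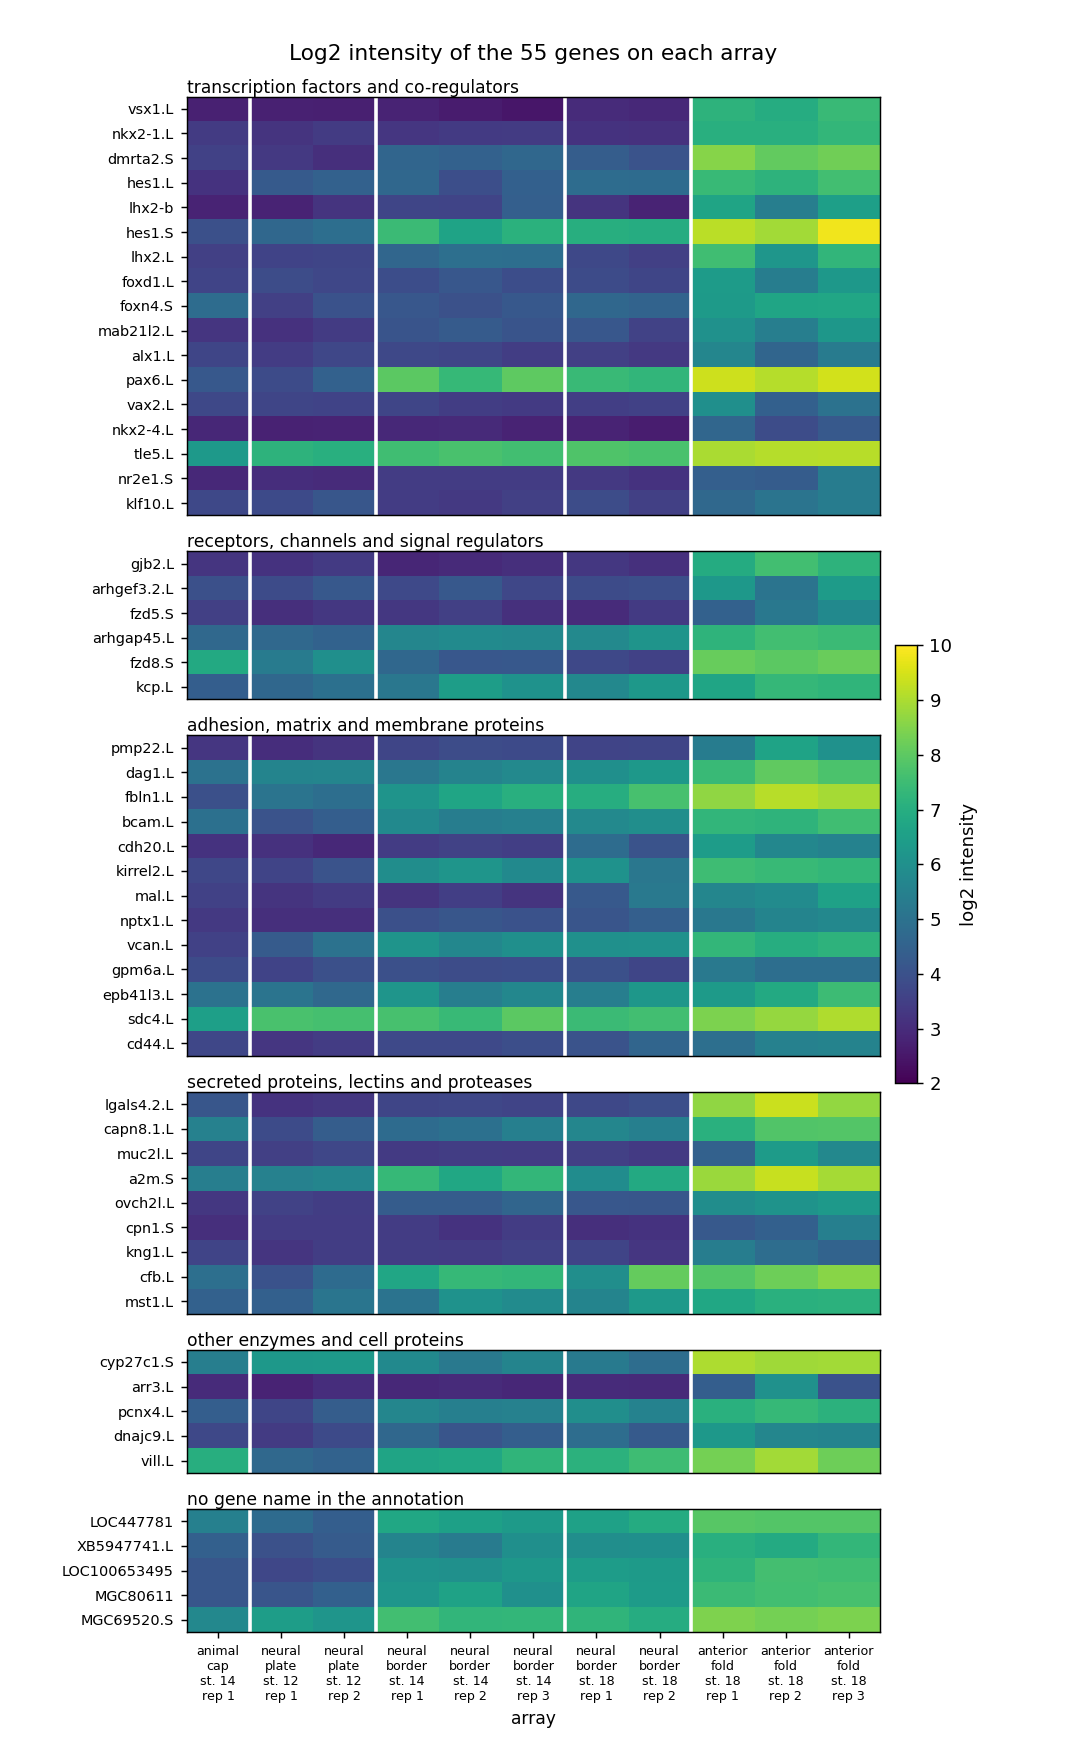
Log2 intensity of the 55 genes on the 11 arrays, with genes in rows by role and arrays in columns by group, colour showing the log2 intensity. The 3 anterior neural fold columns lie above all other columns in each row except that of cfb.L, where 1 border array at stage 18 is above 1 fold array.

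Transcription factors and co-regulators made up 17 of the 55 genes, with gaps from 1.08 to 4.24 and a median of 1.77. The vsx1.L gene is a paired-like homeobox gene known from retinal bipolar cells. Its fold arrays read 7.19, 6.96 and 7.42, and the 8 other arrays read from 2.48 to 2.99. All 8 lay below background, so the fold was at least 11.05-fold higher, counted from background. The homeobox gene nkx2-1.L, a regulator of the hypothalamus and ventral forebrain, gave fold readings of 7.03, 7.05 and 7.31 and other readings from 3.15 to 3.40. Here too no other array rose above background, and the fold was at least 10.6-fold higher. Its relative nkx2-4.L, also a hypothalamic gene in mouse, read 4.64, 3.86 and 4.25 in the fold and 2.64 to 2.97 elsewhere, at least 1.44-fold. It too was at background outside the fold, and its fold arrays lay closer to background.

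The gene dmrta2.S encodes a DM-domain factor of the telencephalon and olfactory region. It read 8.55, 8.07 and 8.25 in the fold, 4.60, 4.49 and 4.66 in the border at stage 14, 4.37 and 4.05 in the border at stage 18, 3.32 and 3.09 in the plate and 3.55 in the animal cap. The border arrays were above background and the plate and cap arrays below it, with no overlap between fold and border, and the gap was 3.70 (13.0-fold). The LIM-homeodomain gene lhx2, needed for eye and forebrain growth in mouse, was measured under the symbols lhx2.L and lhx2-b. The fold readings of lhx2.L were 7.55, 6.21 and 7.28. It read 4.64, 4.93 and 4.88 in the border at stage 14, 3.73 and 3.53 in the border at stage 18, 3.61 and 3.69 in the plate and 3.53 in the cap. The border at stage 14 was the only other group whose arrays were all above background, and the gap was 2.19 (4.57-fold). The lhx2-b probe set read 6.68, 5.43 and 6.50 in the fold against 2.78 to 4.42 elsewhere. These symbols may name copies so alike that a probe set binds both, so they may not be independent.

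Both homeologues of hes1, a repressor downstream of Notch, were present. The suffixes .L and .S mark homeologues, the copies of a gene that this allotetraploid frog carries on its long and its short chromosome set. The hes1.L readings were 7.39, 7.19 and 7.57 in the fold, 4.84 and 4.79 in the border at stage 18, 4.66, 3.91 and 4.46 in the border at stage 14, 4.25 and 4.50 in the plate and 3.17 in the cap. The hes1.S readings were 9.16, 8.89 and 9.82 in the fold, 7.02 and 6.96 in the border at stage 18, 7.47, 6.63 and 7.12 in the border at stage 14, 4.68 and 4.88 in the plate and 3.95 in the cap. The fold arrays stood above all others for both copies, with gaps of 2.57 (5.93-fold) and 2.22 (4.65-fold). The hes1.S border arrays stood well above its plate arrays, whereas the hes1.L border arrays at stage 14 overlapped its plate arrays. The hes1.L border arrays at stage 18, at 4.84 and 4.79, lay above its plate arrays.

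The eye regulator pax6.L, required for eye formation in many animals, was well above background in the border as well as in the fold. It read 9.40, 9.11 and 9.44 in the fold, 7.97, 7.37 and 8.01 in the border at stage 14, 7.41 and 7.26 in the border at stage 18, 3.82 and 4.49 in the plate and 4.22 in the cap. The order of groups was fold, border at stage 14, border at stage 18, with the border ranges overlapping, and then plate and cap, also overlapping. Its gap was 1.53 (2.89-fold). The forkhead gene foxd1.L, which patterns the retina in mouse, read 6.39, 5.40 and 6.26 in the fold and 3.65 to 4.17 elsewhere. The forkhead gene foxn4.S, needed for amacrine and horizontal cells of the mouse retina, read 6.35, 6.70 and 6.73 in the fold and 4.83 in the cap, its next group. The fold arrays of both were separate from all others, with gaps of 2.03 and 1.77.

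Further regulators were as follows. The eye gene mab21l2.L read 6.04, 5.41 and 6.23 in the fold against at most 4.29 elsewhere. The alx1.L gene, a homeobox gene of frontonasal mesenchyme in mouse, read 5.67, 4.62 and 5.33 against at most 3.73. The ventral retina gene vax2.L read 6.0, 4.46 and 5.03 against at most 3.75. Replicate 2 was the lowest fold array for all 3 of these genes. The orphan receptor gene nr2e1.S, the tailless homologue of forebrain stem cells, read 4.43, 4.33 and 5.36 against at most 3.42. The Groucho-related co-regulator tle5.L was above background on every array, at 9.0, 9.12 and 9.14 in the fold and 6.33 to 7.81 elsewhere, while the zinc finger gene klf10.L read 4.70, 5.08 and 5.37 in the fold and 3.34 to 4.13 elsewhere.

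**Figure D2:**
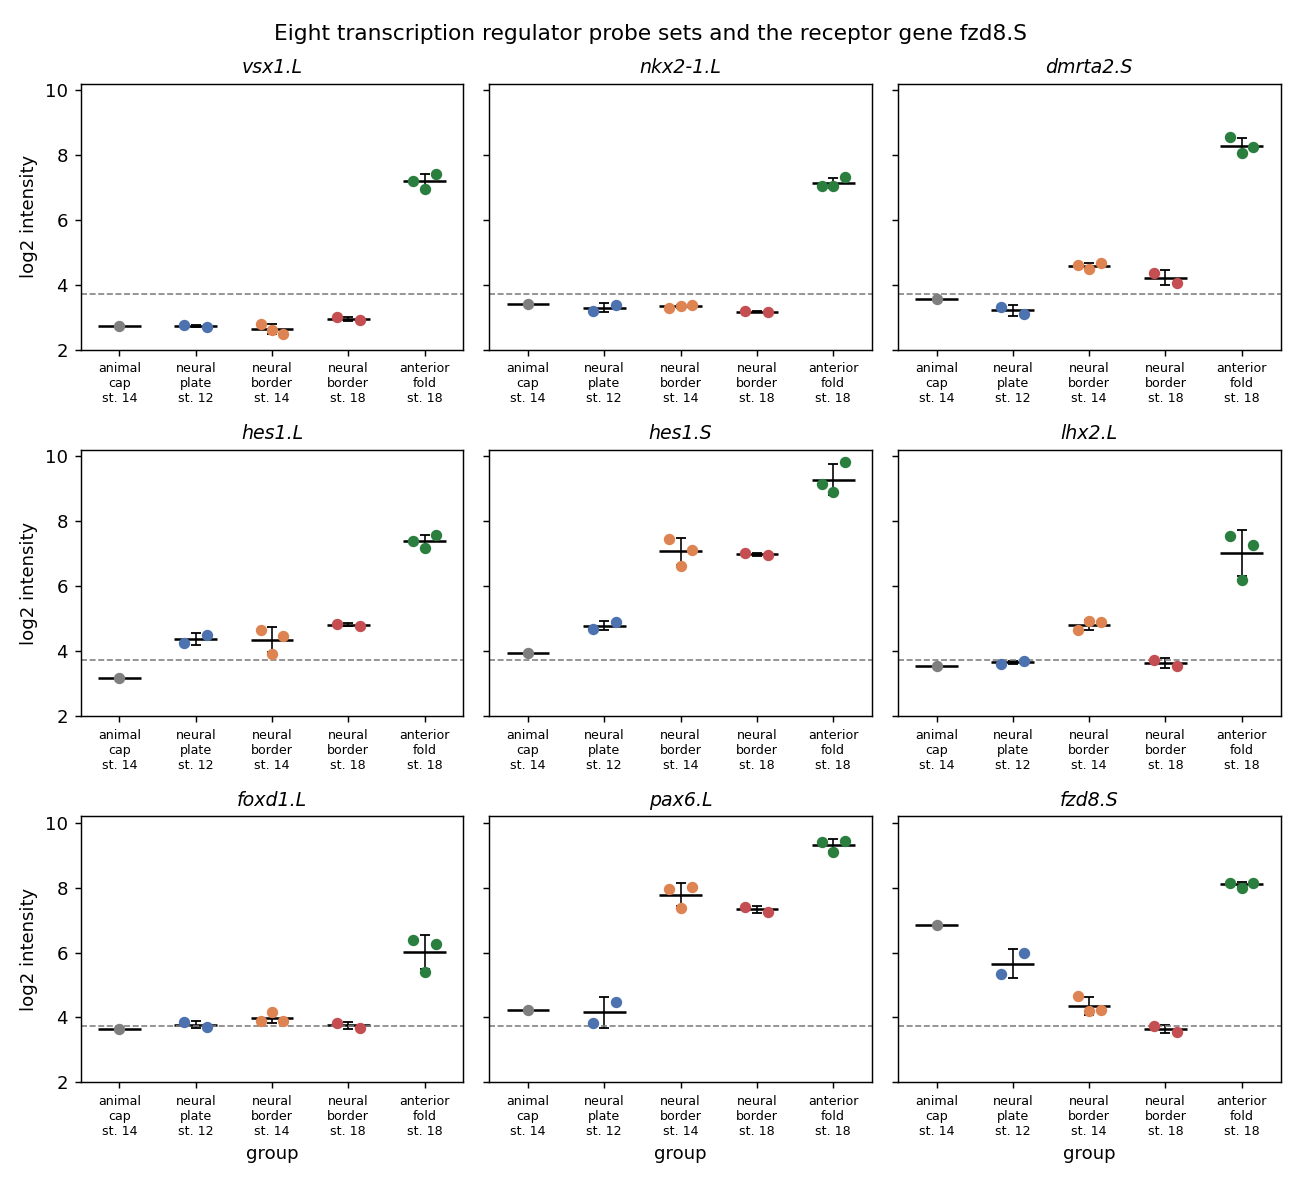
Log2 intensity of 8 transcription regulator probe sets and of the Wnt receptor gene fzd8.S in the 5 groups. Points are arrays, horizontal bars are group means, error bars are 1 SD (none for the single animal cap array) and the dashed line is background at 3.72. The fold points lie above all others in every panel, vsx1.L and nkx2-1.L are at background elsewhere, and the fzd8.S border points lie below its plate and cap points.

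Among 6 receptors, channels and signal regulators the largest gap was that of gjb2.L, a connexin that forms gap junction channels. It read 6.92, 7.58 and 7.17 in the fold and 2.86 to 3.35 on the 8 other arrays. All the others were below background, and the fold was at least 11.3-fold higher. The Frizzled receptor gene fzd5.S, which acts in the eye field of Xenopus, read 4.49, 5.20 and 5.79 in the fold and 2.99 to 3.51 elsewhere, at least 2.70-fold. The related receptor gene fzd8.S read 8.14, 8.0 and 8.16 in the fold, 6.85 in the cap, 5.34 and 5.97 in the plate, 4.66, 4.18 and 4.22 in the border at stage 14 and 3.72 and 3.56 in the border at stage 18. Its groups did not overlap, and their order was fold, cap, plate, border at stage 14 and border at stage 18, with a gap of 1.25 (2.38-fold). The mean of the border at stage 18, at 3.64, was below background. A further fzd8.S probe set did not share this pattern, reading from 5.72 to 6.55 on the 8 other arrays and 6.03, 5.79 and 5.98 in the fold, so the fzd8.S pattern rests on 1 of its 2 probe sets.

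The secreted BMP regulator gene kcp.L read 6.70, 7.32 and 7.22 against at most 6.44, a separation of its nearest arrays that was small beside the spread of its border readings. The other 2 genes of this role appear in the plot of all 55 genes by array.

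The 9 genes for secreted proteins, lectins and proteases included the largest gap of all. The galectin gene lgals4.2.L, whose product binds galactoside sugars, read 8.67, 9.37 and 8.72 in the fold. It read 4.14 in the cap, 3.72 and 3.91 in the border at stage 18, 3.68, 3.71 and 3.65 in the border at stage 14 and 3.17 and 3.29 in the plate. The fold was far above every other array, and the gap was 4.78 (27.5-fold). The mucin-like gene muc2l.L read 4.47, 6.40 and 5.75 in the fold and 3.35 to 3.70 elsewhere, at least 3.53-fold, with fold arrays spread widely. It counted among the 4 measured cement gland markers through its name root. The calpain protease gene capn8.1.L read 7.08, 7.83 and 7.87 in the fold, with the border at stage 18 next at 5.66 and 5.46 and the cap at 5.53.

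The protease inhibitor gene a2m.S read 8.78, 9.34 and 8.93 in the fold, 7.37, 6.77 and 7.31 in the border at stage 14 and 5.90 and 6.86 in the border at stage 18. The ovochymase-like gene ovch2l.L read 5.92, 6.12 and 6.29 against at most 4.61. Their fold arrays were separate from all others, with gaps of 1.87 and 1.69. The carboxypeptidase N gene cpn1.S and the kininogen gene kng1.L were at background outside the fold. The fold readings were 4.23, 4.46 and 5.45 for cpn1.S and 5.38, 4.85 and 4.54 for kng1.L. The growth factor gene mst1.L lay near the threshold, with 6.78, 7.08 and 7.14 in the fold and at most 6.33 elsewhere.

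The 13 adhesion, matrix and membrane genes had a median gap of 1.31 and a range of 1.02 to 2.25, and 0 of them were at background in all 4 other groups. The membrane gene pmp22.L, known from myelin, read 5.37, 6.65 and 6.04 in the fold and 3.05 to 3.86 elsewhere. The dystroglycan gene dag1.L, a laminin receptor subunit, read 7.42, 8.04 and 7.73 against at most 6.27. The fibulin gene fbln1.L, a matrix protein, read 8.68, 9.15 and 8.92 in the fold, 6.99 and 7.67 in the border at stage 18, 6.13, 6.71 and 7.06 in the border at stage 14, 5.08 and 4.88 in the plate and 3.94 in the cap. These 3 genes differed in their other groups: pmp22.L was near background there, dag1.L was at 5.02 or more, and fbln1.L ranged from near background in the cap to 7.67 in the border.

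The laminin receptor gene bcam.L read 7.26, 7.21 and 7.56 in the fold against at most 5.96. The cadherin gene cdh20.L read 6.43, 5.70 and 5.55 in the fold and 4.82 and 4.06 in the border at stage 18, and was below background in the other groups. The immunoglobulin-family gene kirrel2.L read 7.51, 7.39 and 7.29 against at most 6.17. The matrix proteoglycan gene vcan.L read 7.30, 6.98 and 7.17 in the fold, and 5.72 to 6.13 across the border arrays. The proteolipid gene mal.L, which sorts apical membrane proteins, read 5.68, 5.85 and 6.58 in the fold, 4.23 and 5.23 in the border at stage 18 and at most 3.54 elsewhere. The other members of this role were nptx1.L, gpm6a.L, epb41l3.L, sdc4.L and cd44.L, with gaps between 1.02 and 1.25.

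Of the 5 other enzymes and cell proteins, cyp27c1.S, the enzyme that converts vitamin A1 to A2 in fish and frogs, had the largest gap. It read 9.02, 8.86 and 8.89 in the fold, 6.26 and 6.32 in the plate, 5.79, 5.23 and 5.62 in the border at stage 14, 5.29 and 4.87 in the border at stage 18 and 5.42 in the cap. The fold arrays were tight and separate, with a gap of 2.63 (6.19-fold), and the plate came next. The cone arrestin gene arr3.L read 4.40, 6.05 and 4.03 in the fold and 2.79 to 3.06 elsewhere. It was at background outside the fold, and replicate 2 was the highest fold array by a wide margin. The remaining genes were pcnx4.L, the histone chaperone gene dnajc9.L and the villin-like gene vill.L, with gaps of 1.44, 1.28 and 1.16. The 5 genes without a descriptive name in the annotation had gaps from 1.01 to 1.12.

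Near the threshold of 1, the genes just inside were MGC69520.S at 1.01, cd44.L at 1.02 and mst1.L at 1.03. Just outside were cfd.L at 0.999, e2f1.L at 0.99 and mcm5.S at 0.99. Over all probe sets, 126 of 15491 (0.813%) had a fold mean 1 or more above every other group. Of these, 95 had a single symbol, 30 had none and 1 had several. The omitted symbol prefixes took out 30 of the 95 (26 symbols), and the remaining 65 probe sets fell on 55 symbols.

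The same rule was applied with each fold array held out, so that the array left out could be read for genes it had not helped to choose. Without replicate 1 the rule found 63 genes, of which 53 were among the 55, and 39 of the 63 had a gap of 1 or more in replicate 1, where 0.807% of all probe sets did. Without replicate 2 it found 56 genes, 50 of them among the 55, and 43 had that gap in replicate 2, against 0.942% of all probe sets. Without replicate 3 it found 50 genes, 46 of them among the 55, and 43 had it in replicate 3, against 1.01%. In each case every chosen gene was above all other group means on the array left out, as were 17.5%, 18.4% and 17.9% of all probe sets on replicates 1, 2 and 3. The median gaps there were 1.29, 1.30 and 1.59. The other groups' arrays were used both to choose and to read these genes, and the spread among the fold arrays may be technical. These counts are therefore a description and not a test.

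The 3 fold arrays did not agree equally for all roles. The median SD over fold arrays was 0.33 log2 for the 55 genes and 0.13 for all probe sets, and 13 of the 55 had an SD of 0.5 or more, compared with 1.99% of all probe sets. The 55 genes were chosen on these same arrays, and the part of that choice in their SD was not tested. Replicate 2 was the lowest fold array for 13 of the 17 transcription factors and co-regulators and the highest for 0 of them, whereas 29.9% of all probe sets were lowest and 35.3% highest there. The 6 such genes with an SD of 0.5 or more, alx1.L, foxd1.L, lhx2-b, lhx2.L, nr2e1.S and vax2.L, were all lowest in replicate 2. For nr2e1.S the difference was small, at 4.33 in replicate 2 and 4.43 in replicate 1. The lhx2.L and lhx2-b probe sets may not be independent. Genes read on the same array are not replicates of it, and the roles were drawn up with earlier results known, so these counts are descriptive. Replicate 1 was the lowest array for 27 of the 55 genes, against 35.7% of all probe sets. By role it was lowest for 8 of the 9 secreted, lectin and protease genes and 8 of the 13 adhesion, matrix and membrane genes. It was lowest for 4 of the 6 receptors, channels and signal regulators, 4 of the 17 transcription factors and co-regulators, 1 of the 5 other enzymes and cell proteins and 2 of the 5 unnamed genes. Of the 55 genes, 16 were highest in replicate 1, 13 in replicate 2 and 26 in replicate 3. Among all probe sets the shares were 32.8%, 35.3% and 31.9%. The 13 included muc2l.L, arr3.L, pmp22.L and lgals4.2.L. Of the 9 secreted, lectin and protease genes, 3 were highest in replicate 2 and 5 in replicate 3.

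Marker levels also differed between the fold arrays. In replicates 1, 2 and 3 the forebrain markers had means of 8.38, 7.98 and 8.49, the cement gland markers 8.40, 8.99 and 8.47, the hatching gland markers 8.91, 8.13 and 9.12 and the neural crest markers 4.60, 3.68 and 4.81. Replicate 2 was thus lowest for forebrain, hatching gland and crest markers and highest for cement gland markers. The forebrain markers include pax6.L and the cement gland markers include muc2l.L. The part of tissue makeup in the spread of these genes was not tested.

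**Figure D3:**
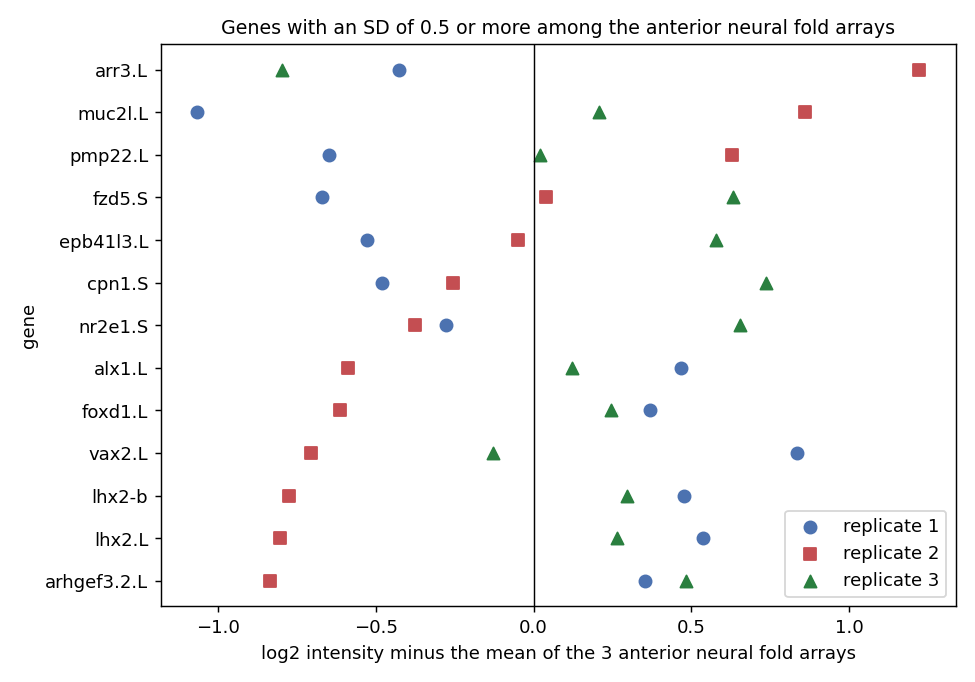
Deviation of each anterior neural fold array from the mean of the 3, in log2 units, for the 13 genes with an SD of 0.5 or more. Circles are replicate 1, squares replicate 2 and triangles replicate 3, and replicate 2 is lowest for lhx2.L, lhx2-b, foxd1.L, vax2.L, alx1.L, nr2e1.S and arhgef3.2.L and highest for arr3.L, muc2l.L and pmp22.L.

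The rule placed these genes below the fold in every other group but did not contrast the other groups with each other. Those differences were tested. The fold arrays correlated with the border arrays at stage 14 at r = 0.964 to 0.971. They correlated with the plate at 0.873 to 0.899 and with the cap at 0.890 to 0.895. Choosing genes high in the fold may by itself favour the border over plate and cap, which was not tested. The shares called in those comparisons are therefore not independent of the choice. The tests used limma across all 15491 probe sets with Benjamini-Hochberg adjustment and a threshold of 0.05, and all 3 comparisons share the border arrays at stage 14. Dissected region and stage change together between plate and border and cannot be told apart, and the animal cap group has a single array, assumed to vary like the others. The error of each gene pooled its spread over all groups, the fold included. The fold SD had a median of 0.33 log2 for the 55 genes and 0.13 for all probe sets. This widens the errors of the 55, so their shares called are not strictly comparable with those of all probe sets.

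Between the neural plate at stage 12 and the neural border at stage 14, 25 of the 55 genes (45.5%) rose and 3 (5.45%) fell, while 27 did not pass the test. Over all probe sets 19.6% rose and 21.4% fell, and the median difference was 0.65 log2 for the 55 genes and 0.01 for all probe sets. The rise was largest for pax6.L, which went from 3.82 and 4.49 to 7.97, 7.37 and 8.01, a difference of 3.63 (SE 0.24, 12.4-fold, limma adjusted p = 3.19e-06). The cfb.L gene rose by 2.72 (SE 0.52, 6.59-fold, limma adjusted p = 0.00212) and hes1.S by 2.29 (SE 0.28, 4.89-fold, limma adjusted p = 0.000136). The actin-binding gene vill.L rose by 2.28 and kirrel2.L by 2.12, with limma adjusted p-values of 3.59e-05 and 8.9e-05. The unnamed genes LOC100653495, MGC80611 and LOC447781 rose by 2.32, 2.00 and 1.97.

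Among the other regulators dmrta2.S rose by at least 1.82-fold, counted from background, and lhx2.L by at least 2.13-fold, while tle5.L rose by 0.50 log2. The genes vsx1.L, nkx2-1.L, nkx2-4.L and alx1.L lay below background or near it in both groups and did not pass. The 3 genes that fell were fzd8.S, by 1.30 log2 (SE 0.20, 2.47-fold, limma adjusted p = 0.000554), cyp27c1.S, by 0.75 (SE 0.18, 1.68-fold, limma adjusted p = 0.0066), and klf10.L, by 0.54 (limma adjusted p = 0.0499). The klf10.L border arrays, at 3.43, 3.34 and 3.52, were all below background, and its plate arrays read 3.81 and 4.13. The fall of 0.54 therefore rests on border readings not told apart from background, while the plate readings lay above it. The calls for lhx2.L, capn8.1.L, mab21l2.L, dnajc9.L, kcp.L and klf10.L were lost under at least 1 alternative. Epidermis markers read 5.44 to 5.63 in the plate and 6.84 to 7.32 in the border at stage 14, and neural crest markers 3.91 to 3.93 and 7.45 to 7.73. Their part in these differences was not tested.

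Between the neural border at stage 14 and the animal cap at stage 14, 22 of the 55 genes (40%) were called higher in the border and 2 (3.64%) lower, with 31 not passing. The spread of the cap was not measured (n = 1), so these errors and p-values rest on the spread of the other groups. Over all probe sets 15.1% were higher and 15.8% lower, and the median difference was 0.62 for the 55 genes against -0.04 for all probe sets. The largest differences were those of pax6.L at 3.57 (SE 0.30, 11.9-fold, limma adjusted p = 2.66e-05), hes1.S at 3.12 (SE 0.36, 8.70-fold, limma adjusted p = 0.000159) and fbln1.L at 2.70 (SE 0.35, 6.48-fold, limma adjusted p = 0.000343). The cap array was below background for vcan.L, which was at least 4.67-fold higher in the border, and for hes1.L, at least 1.54-fold higher. The tle5.L difference was 1.28 (SE 0.13, limma adjusted p = 9.85e-05).

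The genes lower in the border were fzd8.S, by a difference of -2.49 (SE 0.25, 5.62-fold, limma adjusted p = 8.39e-05), and foxn4.S, by -0.70 (SE 0.22, 1.62-fold, limma adjusted p = 0.0358). The cap array of fzd8.S, at 6.85, was higher than every array other than the fold arrays. The calls for lhx2.L, nptx1.L, foxn4.S, cfb.L and kcp.L were lost under at least 1 alternative. Epidermis markers read 8.82 in the cap and 6.84 to 7.32 in the border, and their part in these differences was not tested.

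Between the neural border at stage 14 and at stage 18, 1 of the 55 genes (1.82%) rose and 0 fell by limma, while 3.78% of all probe sets rose and 2.78% fell. At an unadjusted p under 0.05, 7 (12.7%) were higher and 6 (10.9%) lower, near the 10.7% and 9.95% of all probe sets. The median difference was 0.03 for the 55 genes and -0.02 for all probe sets. The gene that rose was mal.L, from 3.20, 3.47 and 3.20 to 4.23 and 5.23. The stage 14 arrays were below background, so the rise was at least 2.01-fold, with a fitted difference of 1.44 (SE 0.31, limma adjusted p = 0.026). That call was lost with only these arrays in the fit (limma adjusted p = 0.0759), without border replicate 1 (limma adjusted p = 0.0569) or replicate 3 (limma adjusted p = 0.0822) of stage 14, and without border replicate 2 of stage 18 (limma adjusted p = 0.134). Several marker sets differed between the border stages. Means of the 2 measured multiciliated cell markers were 3.76 to 4.02 at stage 14 and 4.76 and 5.87 at stage 18. In the fold these means were 3.57 to 3.84. There and in the border at stage 14, 1 of the 2 markers was above background. Hatching gland markers read 6.69 to 7.23 at stage 14 and 9.22 and 9.61 at stage 18, and epidermis markers 6.84 to 7.32 and then 8.04 and 8.26. Forebrain markers went the other way, from 5.84 to 6.34 at stage 14 to 5.03 and 4.82 at stage 18. The part of these tissues was not tested. The next genes did not pass: lhx2.L differed by -1.19 (SE 0.32, limma adjusted p = 0.0558), fzd8.S by -0.71 (limma adjusted p = 0.0662) and cdh20.L by 0.94 (limma adjusted p = 0.0711). The stage 18 means of lhx2.L and fzd8.S, at 3.63 and 3.64, were below background, so the sizes of these 2 differences rest on readings not told apart from it. The SD of lhx2.L was 0.16 in the border at stage 14, 0.14 at stage 18 and 0.71 in the fold, and its error included the fold arrays. The cdh20.L arrays at stage 14 were below background, so its difference was at least 1.64-fold.

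**Figure D4:**
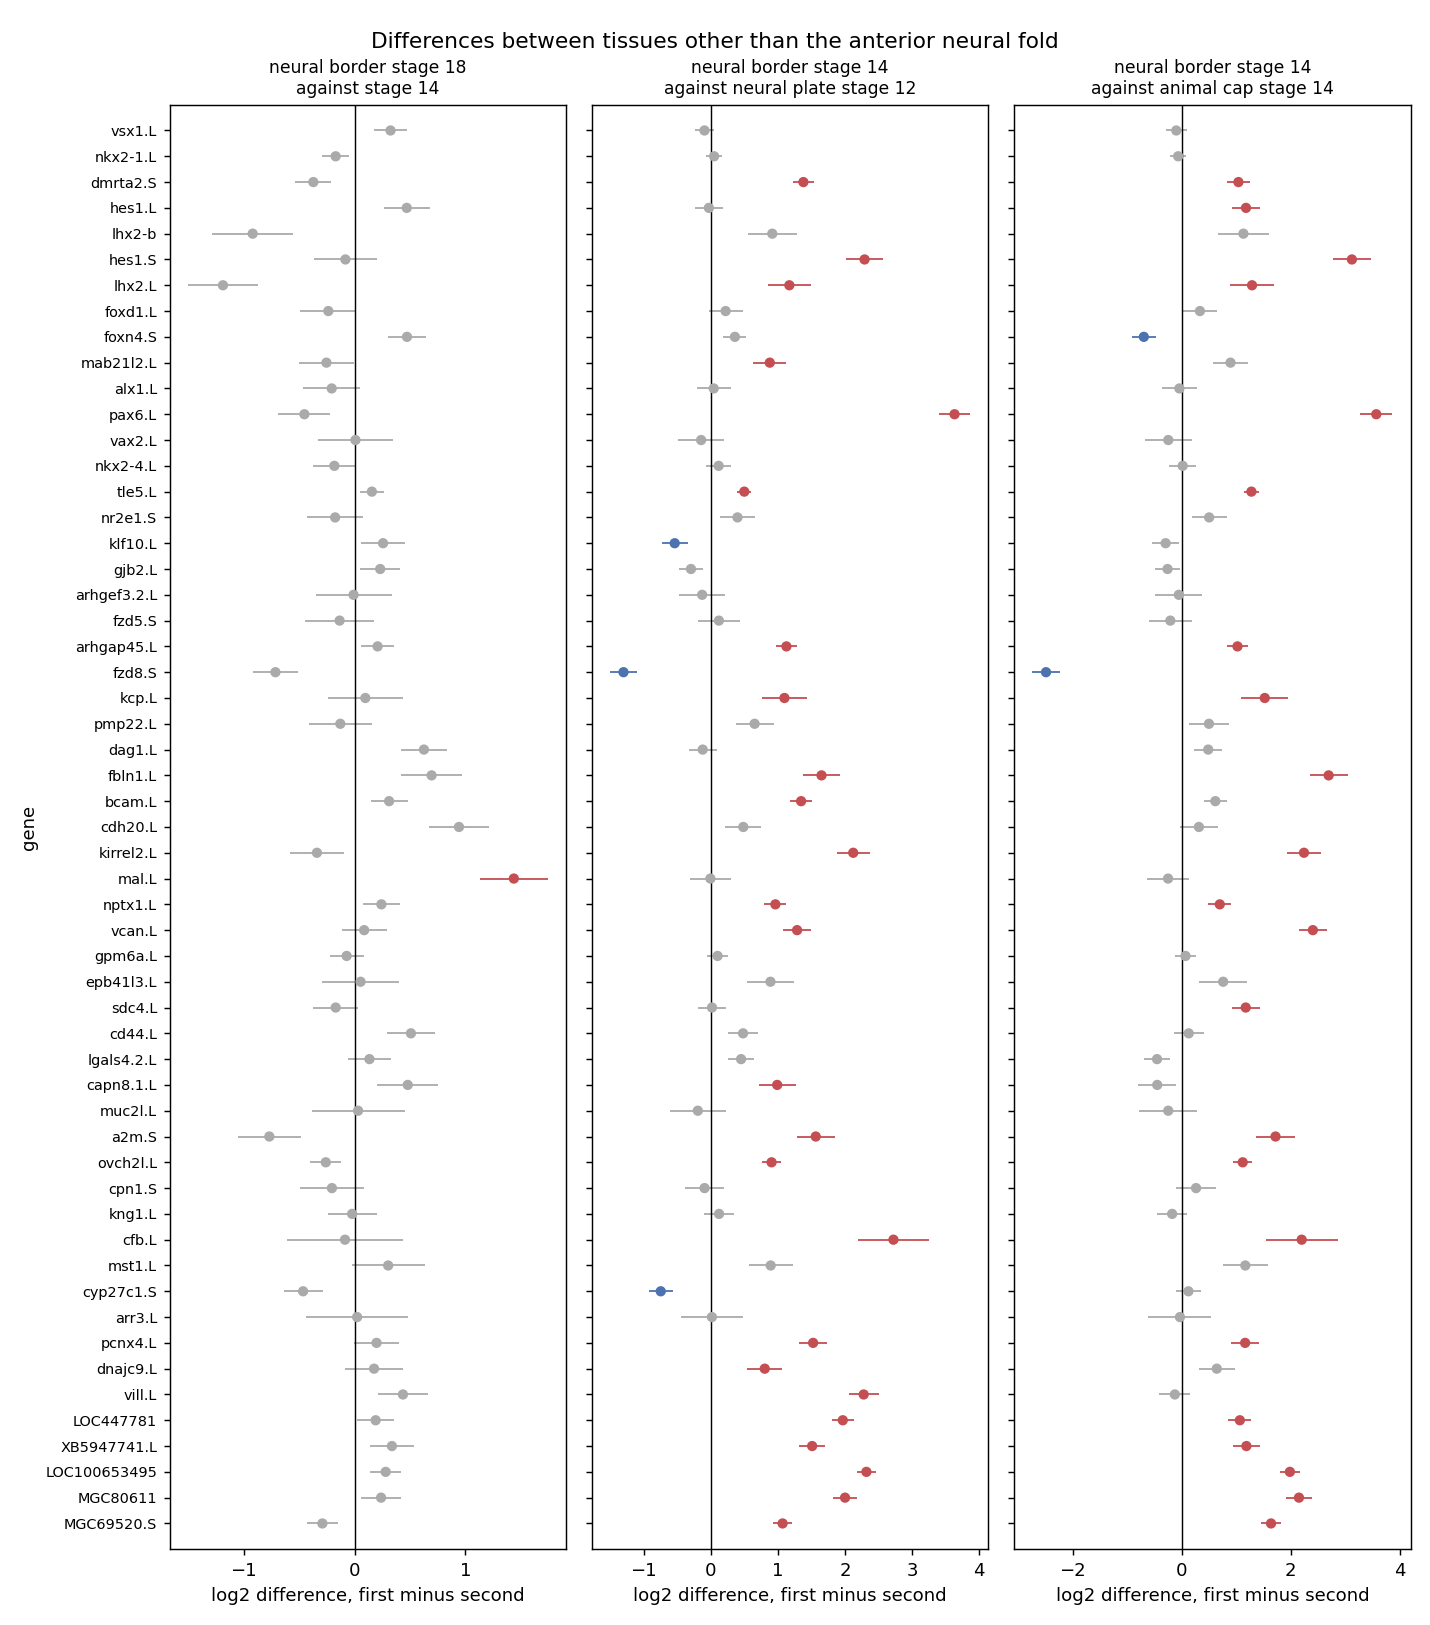
Log2 difference of each of the 55 genes in the 3 tested comparisons, with bars of 1 SE. Red points passed as higher in the first group, blue points passed as lower and grey points did not pass. The counts are 1 and 0 for border stage 18 against stage 14, 25 and 3 for border against plate, and 22 and 2 for border against animal cap.

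Other genes of the same pathways and tissues were counted from lists. Of 36 listed anterior neural and forebrain genes, 25 were measured, 20 were highest in the fold and 12 had a gap of 1 or more. The 12 include 7 genes described here (pax6, lhx2, nkx2-1, nkx2-4, vax2, dmrta2 and nr2e1). Over all probe sets 17.0% were highest in the fold and 0.813% had a gap of 1 or more. The lists were written with earlier results of these data known, and the 7 genes were chosen by this same gap. The counts of genes highest in the fold or past the gap are therefore a description and not a test. By limma, 0 of the 25 rose and 5 fell from border stage 14 to stage 18, where 3.78% and 2.78% of all probe sets did. From the plate to the border at stage 14, 7 rose and 2 fell (all probe sets 19.6% and 21.4%), and 9 were higher and 2 lower in the border than in the cap (15.1% and 15.8%). Of 14 measured Notch pathway genes, which include hes1, 4 were highest in the fold and 1 had a gap of 1 or more. From plate to border at stage 14, 5 of the 14 Notch genes rose and 1 fell, and 7 were higher and 0 lower in the border than in the cap, to be read against the same shares of all probe sets. The 4 measured cement gland genes, muc2l among them, all had a gap of 1 or more, and of 18 measured placode genes 9 were highest in the fold and 2, mab21l2 among them, had that gap.

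Other probe sets of the same symbols, read on the same arrays, shared the pattern in part. There were 23 further probe sets for 14 of the genes. The fold mean was highest for 17 of the 23, a gap of 1 or more was seen for 10, and 6 had a higher mean in another group. The shares of all probe sets were 17.0% highest in the fold and 0.813% with a gap of 1 or more. Those 10 had passed the same rule and were set aside because 1 probe set was kept per symbol, so they are no separate check. Of the 23, 6 were at background in the fold, 3 of them among the 6 with a higher mean elsewhere and 3 among the 17 highest in the fold. The first 3 show no measured disagreement, and the other 3 show no measured agreement. A further foxd1.L probe set read 7.24, 7.03 and 7.73 in the fold and 3.02 to 3.28 elsewhere, all below background, so the fold was at least 12.2-fold higher, against 4.09-fold for the foxd1.L probe set kept by the rule. Of 5 further pax6.L probe sets, 4 had gaps of 1.10 to 1.61 and 1 was at background throughout. The 2 further muc2l.L probe sets, at background outside the fold, were at least 2.52-fold and 2.5-fold higher in it and were also highest in fold replicate 2. Of the further lhx2.L probe sets, 1 was at least 4.53-fold higher in the fold and the other had a gap of -0.07. The further ovch2l.L probe set was below background on all 11 arrays, and that of mst1.L had a gap of -0.20.

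By chromosome set, the suffix .L was carried by 41 (74.5%) and .S by 10 (18.2%), while 57.2% and 39.3% of all distinct symbols carried them. For 10 of the genes the homeologue was also measured by a single-symbol probe set, and hes1 was the only one with both copies past the gap of 1. Of the other 9 homeologues, 3 were highest in the fold, beside 17.0% of all probe sets, and 6 had a higher mean in another group. Their median gap was -0.12, and 2 of the 9 were at background in every group. The lowest gap was that of mst1.S, at -0.66, which read 4.14 in the cap and 3.92 and 4.19 in the plate and was below background in the fold. The sdc4.S copy was highest in the plate, with a gap of -0.05. The dag1.S copy read 4.10, 3.81 and 3.94 in the fold and at most 3.54 elsewhere, below background, so the fold was at least 1.17-fold higher. The pmp22.S copy had a gap of 0.63 and, like pmp22.L, was highest in fold replicate 2. The vill.S copy read 8.15, 8.64 and 8.37 in the fold and 8.58 in the cap, so its fold and cap arrays overlapped in range. The tle5.S copy lay between 8.10 and 8.85 on all 11 arrays. Copies of a gene may share probe binding, which was not tested.

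**Figure D5:**
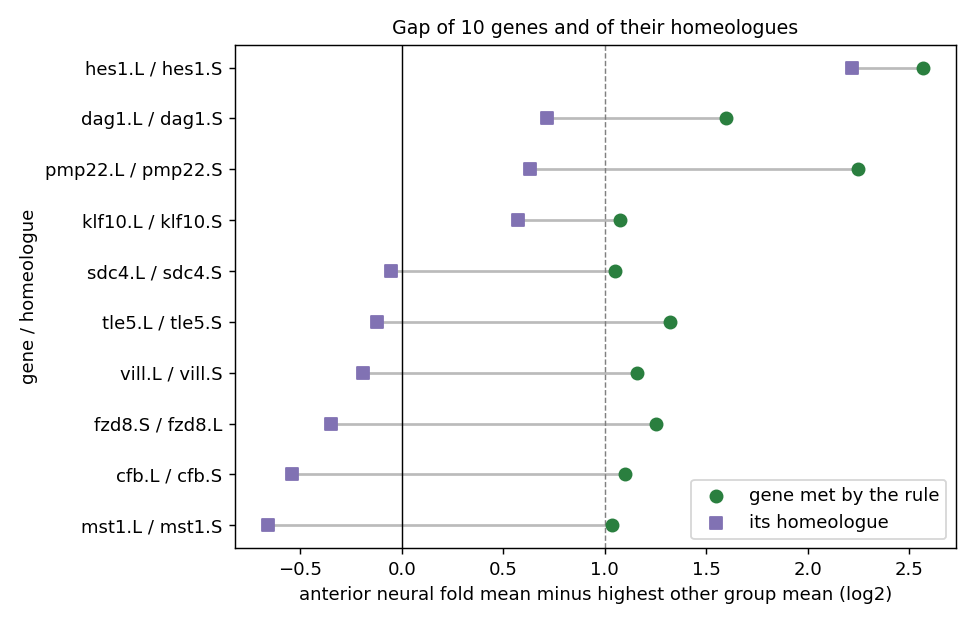
Gap (anterior neural fold mean minus the highest other group mean, log2) of 10 genes met by the rule (circles) and of their homeologues (squares), joined by a line for each gene. Readings below background enter as they were read. The dashed line marks the threshold of 1, and hes1.S is the only homeologue to the right of it.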

How the data were processed

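The deposited table gave 1 value per probe set and array. The values were taken as log2 intensities as the authors deposited them, on their range and equal medians. The submitters' processing notes name R 2.14.2, and background correction and scaling are not given in the sources used here. The precision is limited by the number of arrays, 1 to 3 per group. Probe sets took their names from the platform annotation, whose gene IDs were looked up in a RefSeq table for the present symbol. Of 15491 probe sets that are not controls, 9304 had 1 symbol, 195 several and 5992 none. Of the 55 genes, 54 were named through RefSeq and lhx2-b kept the platform's symbol. Where several probe sets of a symbol passed the rule, the brightest over all arrays was kept.

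A mean per group was fitted to all 11 arrays with limma 3.58.1 in R 4.3.3 (lmFit, eBayes), two-sided, and p-values were adjusted by Benjamini-Hochberg over all 15491 probe sets. The code was tested on simulated data. Where all arrays of a group were below background, the fold was counted from the background level, which was the 95th percentile of the tag controls, and is given as "at least". The members, the marker and pathway lists and the roles were chosen with earlier results of these data known. Named were the 25 genes with the largest gap, the 3 nearest the threshold on each side, up to 8 per direction and comparison, members in lists and members with a homeologue or a further probe set. Further members may be named within their role.

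Among all probe sets 17.0% were highest in the fold and 0.813% had a gap of 1 or more, and the counts below are to be read beside these shares. Of the other lists, the genes measured, highest in the fold and with a gap of 1 or more were as follows. They were 4, 0 and 0 for hatching gland, 13, 3 and 2 for Wnt antagonists, 12, 5 and 1 for hedgehog, 18, 3 and 0 for BMP and Nodal regulators and 20, 2 and 0 for neuronal differentiation. They were 14, 7 and 1 for neural progenitor, 14, 2 and 0 for neural crest, 16, 2 and 0 for epidermis and 10, 0 and 0 for multiciliated cells. They were 14, 6 and 4 for axial mesoderm, 13, 1 and 0 for muscle, 13, 3 and 0 for endoderm and 14, 2 and 0 for blood and vessel.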

Additional observations from a re-analysis of the deposited data

How the results depend on the processing

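The rule found 25 genes at a threshold of 1.5, all 25 among the 55, and 50 to 63 when 1 array at a time was left out. Under the other settings (a threshold of 0.8, group medians, quantile normalization, centring, the brightest probe set, no animal cap, no dim probe sets) the number stayed within 1.5 times of 55. From border stage 14 to stage 18, the called genes numbered 2 (1 lower) with arrays centred and with dim probe sets left out, 3 (2 higher, 1 lower) with trend and robust eBayes, and 0 higher and 1 lower when the fit held only the border arrays. Leaving out 1 array gave 0 to 3 calls, 0 to 2 higher and 0 to 1 lower. For border against plate it gave 22 to 31 calls, 20 to 28 higher and 2 to 3 lower, and for border against animal cap 19 to 27 calls, 18 to 25 higher and 1 to 3 lower. No called difference changed sign, and 22 of 28 and 19 of 24 calls against plate and cap were kept under every alternative run. The cause of these changes was not tested. Over all probe sets, 1016 were called from border stage 14 to stage 18, against 233 when the fit held only the 5 border arrays, 620 with the replicate block and 458, 673 and 672 without border replicate 3 of stage 14 or replicates 1 and 2 of stage 18. The fit with only the arrays compared was not run for the animal cap, which has 1 array.

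Whether replicate numbers pair the arrays was not settled. Deviations of same-numbered arrays from their group means correlated at -0.10 to 0.26 over 13 pairs, and those of different numbers at -0.28 to 0.28 over 24. In groups of 2 arrays the deviations mirror each other, so values return with the opposite sign. The pairs are therefore not independent and cannot exclude a pairing. With the replicate number as a block, 1 gene was called from border stage 14 to stage 18, 29 for border against plate (26 higher, 3 lower) and 23 for border against animal cap (21 higher, 2 lower).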
